A study of Mus musculus with 12 samples.

Results

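The 35 genes described here encode proteins that carry a cell through mitosis, from the kinases and cyclins that start it to the proteins that part the daughter cells. They were chosen by name, and all 35 were found in a table of 54532 mouse genes. RNA was sequenced in bulk from Lin-ckit+ cells, the fraction of bone marrow that holds haematopoietic stem and progenitor cells, sorted from fresh marrow. The study compared mutant and wild-type cells from mice given metformin or vehicle for 1 month in a competition experiment. The 4 groups, of 3 libraries each, were RH MET (Dnmt3a fl-R878H/+, metformin), RH VEH (Dnmt3a fl-R878H/+, vehicle), WT MET (Dnmt3a+/+, metformin) and WT VEH (Dnmt3a+/+, vehicle). All were on a C57BL/6 background and carried Mx1-cre, a recombinase transgene under an interferon-responsive promoter. Dnmt3a encodes a DNA methyltransferase that sets new methylation marks, and R878H is the mouse counterpart of a recurrent leukaemia mutation. The age of the animals, the dose and the set-up of the competition are not given in the sources used here. Recombination of the floxed allele could not be checked from these counts. With 2 animals in each treatment group, by the labels, and 3 libraries, some libraries may come from the same animal; p-values then reflect differences among libraries, possibly technical ones, and may be too small.

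Mitosis begins when cyclin-dependent kinase 1 (Cdk1), bound to cyclin A or B and activated by Cdc25 phosphatases, phosphorylates its substrates. The spindle checkpoint then holds the anaphase-promoting complex (APC/C) inactive until every chromosome is attached, after which Cdc20 and the enzyme Ube2c let it mark cyclin B for destruction. Most of these genes are transcribed late in the cell cycle. In marrow, early progenitors divide often while most stem cells are quiescent, so the summed RNA of such genes depends on the share of cells in division. In bulk samples, fewer dividing cells and less RNA per dividing cell cannot be told apart.

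Total counts per library ran from 13359583 to 21938003. Mitochondrial transcripts took 40.8% of the counts in RH VEH 2 and 33.3% in WT MET 2, against 1.57% to 4.32% in the other 10 libraries, so results are also given without these 2 libraries. The progenitor genes Kit (118 to 199.9 CPM, read counts scaled to the normalised library size), Cd34 (53.3 to 158 CPM) and Myb (204 to 338 CPM) were present in every library. Dnmt3a stood at 39.7 to 59.9 CPM; its RNA level does not check a heterozygous point mutation. Libraries carry the number of their column in the deposited table, and belong to round 1 (RH MET 1 and 2, RH VEH 1, WT MET 1, WT VEH 1 and 2) or round 2 (the other 6), according to whether a smaller deposited table held identical counts. In that table the column with the counts of RH VEH 1 carries the number 2, so rounds were assigned by the counts and not by the numbers.

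Promoters of mitotic genes are known for a pair of elements, the cell cycle genes homology region (CHR) and the CCAAT box, bound by the factor NF-Y. The CHR is bound by complexes that hold the gene silent in early phases. Its core was searched here as TTTGAA or TTCGAA only. RefSeq promoter windows (build GRCm38.p6, 250 bases before to 50 after the transcription start) were at hand for 30 of the 35 genes, in 33 windows. The 6 shown run from 120 bases before to 20 after the start, with CHR cores and CCAAT boxes on either strand in capitals (on the minus strand they read TTCAAA and ATTGG). Ube2c, Birc5 and Cdk1 are shown because their levels came nearest to a difference between groups. Ccnb1 and Ccnb2 are shown as paralogs without and with a core of the searched sequences, and Hmmr as the gene that varied most between libraries.
Ube2c (chr2:164769809-164769948, plus strand): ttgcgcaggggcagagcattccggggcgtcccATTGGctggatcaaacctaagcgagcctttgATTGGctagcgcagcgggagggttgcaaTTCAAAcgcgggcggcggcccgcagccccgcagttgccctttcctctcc
Birc5 (chr11:117849117-117849256, plus strand): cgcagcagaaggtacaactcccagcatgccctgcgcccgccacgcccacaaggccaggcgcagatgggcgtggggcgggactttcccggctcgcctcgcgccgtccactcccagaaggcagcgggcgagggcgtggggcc
Cdk1 (chr10:69352893-69353032, minus strand): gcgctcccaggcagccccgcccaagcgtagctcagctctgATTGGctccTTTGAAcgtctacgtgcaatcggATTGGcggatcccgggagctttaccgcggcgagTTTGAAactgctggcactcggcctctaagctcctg
Ccnb1 (chr13:100786467-100786606, minus strand): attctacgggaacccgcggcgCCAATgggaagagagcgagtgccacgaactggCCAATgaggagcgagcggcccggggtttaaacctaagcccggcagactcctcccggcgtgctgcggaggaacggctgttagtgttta
Ccnb2 (chr9:70421535-70421674, minus strand): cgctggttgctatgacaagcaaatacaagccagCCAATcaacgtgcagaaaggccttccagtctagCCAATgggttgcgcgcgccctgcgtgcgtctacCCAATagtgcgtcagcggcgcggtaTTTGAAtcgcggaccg
Hmmr (chr11:40733418-40733557, minus strand): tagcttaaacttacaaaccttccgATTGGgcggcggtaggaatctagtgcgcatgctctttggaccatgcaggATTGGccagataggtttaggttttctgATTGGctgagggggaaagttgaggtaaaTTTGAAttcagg

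A CHR core lay in the window of 24 of the 30 genes. By window the share was 81.8% of 33 for the mitosis genes, against 19.2% of all 32851 RefSeq promoter windows. Between 50 bases before and 50 after the start, it was 72.7% against 5.31%. A CCAAT box was found in 23 of the 30 genes (78.8% of windows against 37.4% of all windows), and both elements together in 21 genes (72.7% against 7.52%). Only Cdk1 held one of the E2F motifs searched on both strands, TTTGGCG or TTTCGCG, found in 2.37% of all windows. Boxes on opposite strands can share bases, as a pair in the Ube2c window does, and were then counted separately, while TTCGAA, which reads alike on both strands, was counted once. A match describes letters, not binding.

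The position of the elements followed a common layout. Of 34 CHR cores, counted in 1 window a gene, 24 lay within 50 bases of the start and 17 of the 34 lay after it. Of 54 CCAAT boxes, 53 lay before the start and 38 of them within 120 bases of it. Neither TTTGAA nor TTCGAA was found in the windows of Ccnb1, Birc5, Mad2l1, Cenpe, Knstrn and Nusap1, and no other sequence was searched as a core. Birc5 held neither element and Ube2c held both. Windows for Aurkb, Kif20a, Tpx2, Cdc25c and Ccna2 were not used here.

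**Figure D1:**
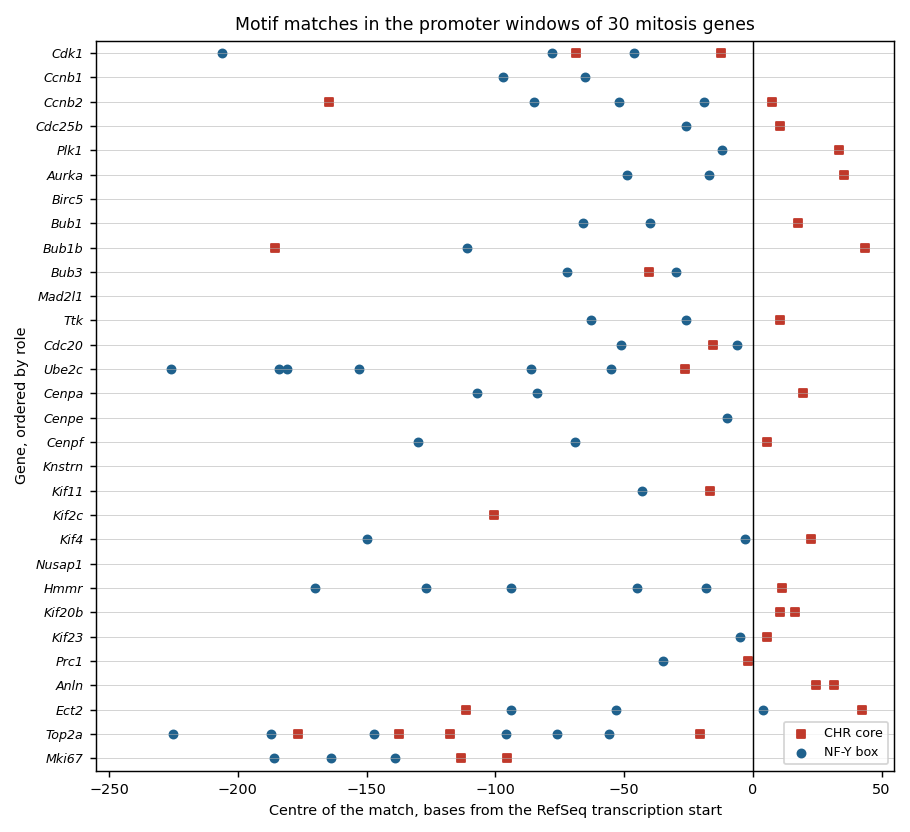
Positions of CHR cores (squares) and CCAAT boxes (circles, NF-Y box) in the promoter windows of 30 mitosis genes, in bases from the RefSeq transcription start (vertical line). Of the 54 CCAAT boxes 53 lie left of the start, while 17 of the 34 CHR cores lie right of it.

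All 35 genes passed the filter on low counts that kept 15003 genes, and the lowest count of any of them in any library was 243. Mki67, which encodes the proliferation antigen Ki-67, was the most abundant at 1142 to 1959 CPM, followed by Top2a, the topoisomerase that untangles sister DNA, at 560 to 842 CPM. Per kilobase of the gene length given in the deposited table the order differed, with Ccnb2 (cyclin B2) first at a mean of 148 CPM per kilobase, Mki67 at 138, Cdc20 at 100.2 and Ube2c at 99.9, and Cenpf, a large kinetochore protein, last at 6.21. The median member lay at percentile 88.1 of all tested genes on this scale. Together the 35 genes took 0.707% to 0.885% of the counts that did not come from the mitochondrial genome.

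Levels varied little between libraries. The ratio of the highest to the lowest library was under 2 for 31 of the 35 genes, from 1.33 for Tpx2, the activator of Aurora kinase A, to 2.57 for Hmmr, a spindle-binding protein. The exceptions besides Hmmr were Kif20a at 2.21, Ect2 at 2.08 and Cdc20 at 2.07. The median biological coefficient of variation was 0.157 for the members, against 0.223 for all tested genes, and the median log2 range over the 12 libraries was 0.67 against 1.06. The members stand high among the tested genes, at a median percentile of 89.9 by mean CPM. Their spread was not compared with that of genes of like level.

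**Figure D2:**
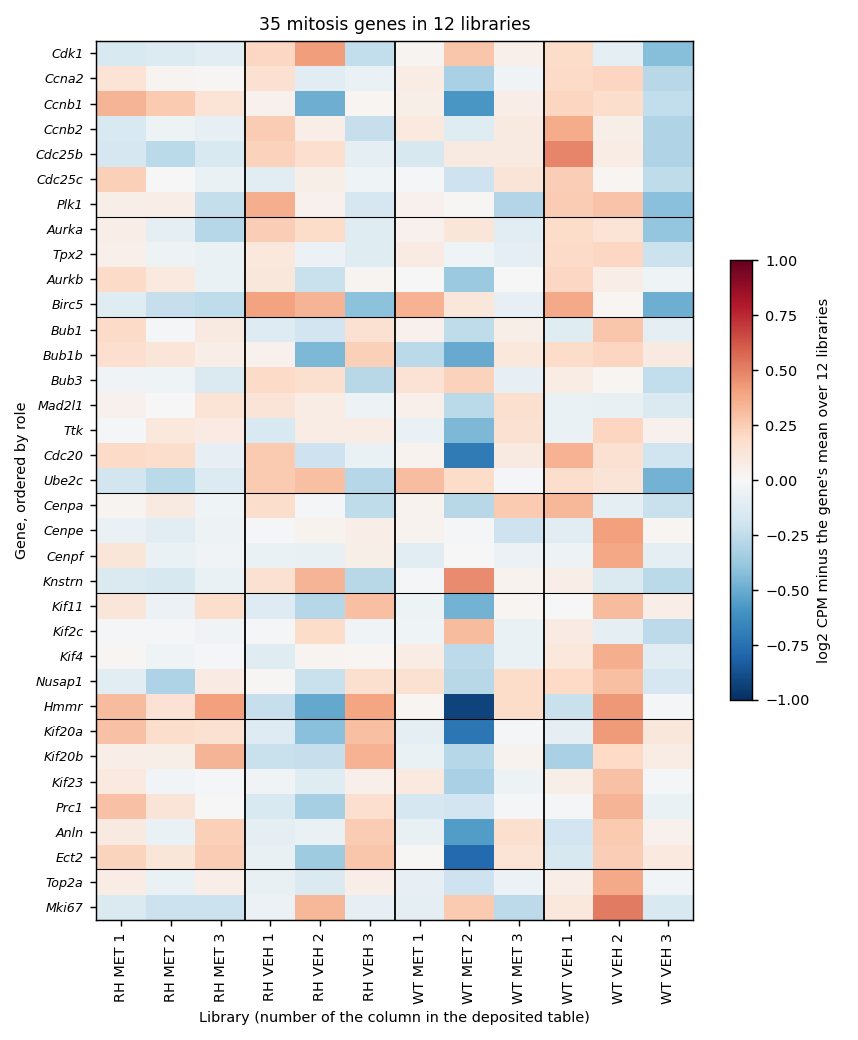
Levels of the 35 mitosis genes (rows, ordered by role) in 12 libraries (columns), as log2 CPM minus the gene's mean over the 12 libraries; red is above and blue below that mean. WT MET 2 holds the deepest blue, at Hmmr, Ect2, Kif20a and Cdc20, and the 3 RH MET columns resemble each other more than the columns of the other groups do.

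The RH MET libraries lay closest together. Of the 4 groups, RH MET had the smallest standard deviation of log2 CPM for 29 of the 35 genes (82.9%, against 46.5% of all tested genes), RH VEH for 1, WT MET for 3 and WT VEH for 2. The median of that standard deviation over the members was 0.07 in RH MET, 0.218 in RH VEH, 0.212 in WT MET and 0.25 in WT VEH. Over all tested genes it was 0.192, 0.342, 0.288 and 0.293 in the same groups. RH VEH and WT MET each hold a library of high mitochondrial share (RH VEH 2 and WT MET 2), while RH MET and WT VEH hold none. RH MET 1 and 2, both of round 1, were the most alike pair within any group (median chi-square per gene 1.87, next lowest 4.25). The part of these libraries in the spread was not tested. Kif2c, a kinesin that shortens microtubules, stood at 63.2 ± 0.586 CPM in RH MET, 66.3 ± 5.80 in RH VEH, 67.7 ± 10.4 in WT MET and 60.6 ± 7.34 in WT VEH (SD, n = 3 each). Its group means thus lay between 60.6 and 67.7 CPM, and its spread was smallest in RH MET.

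RH MET was first set against WT MET, the comparison of genotypes under metformin. None of the 35 mitosis genes passed an adjusted p of 0.05 (edgeR quasi-likelihood test, Benjamini-Hochberg over 15003 genes), where 1 gene in all did (0.00667%). An unadjusted p under 0.05 was reached by 2 members, both lower, against 5.78% of all genes in either direction and 3.59% lower. That count was 7 without WT MET 3, 3 without RH VEH 2 or RH VEH 3, 0 without RH MET 1, RH MET 2, WT MET 1 or WT MET 2, and 1 or 2 without any other library. It was 7 without the filter on low counts and 0 without the round term. The median log2 fold change was 0.05 for the members and −0.02 for all genes; the members' median ran from −0.03 without RH MET 3 to 0.12 without WT MET 3. The 95% interval of the fold change stayed within 2-fold for 34 of the 35, the exception being Hmmr, and within 1.5-fold for 20.

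Ube2c, the ubiquitin-conjugating enzyme of the APC/C, stood at 225, 213 and 233 CPM in RH MET and at 318, 291 and 253 CPM in WT MET. The groups did not overlap, and every RH MET library was below every WT MET library. Its log2 fold change was −0.43 ± 0.175 (SE, n = 3 each; edgeR unadjusted p = 0.0299, adjusted p = 0.738). Birc5, or survivin, a subunit of the chromosomal passenger complex, stood at 211, 195 and 193 CPM in RH MET and at 292, 248 and 216 CPM in WT MET. It was likewise lower in each RH MET library, with a log2 fold change of −0.45 ± 0.195 (edgeR unadjusted p = 0.0405, adjusted p = 0.738). Kif20a, a kinesin of the central spindle, ran the other way, at 104, 96.3 and 94.5 CPM in RH MET and 80.1, 51.6 and 84.6 CPM in WT MET. Its log2 fold change was 0.42 ± 0.222 (edgeR adjusted p = 0.738).

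Groups without overlap were found for 8 of the 35 genes in this comparison. Levels and their overlap were not adjusted for round, unlike the fold changes. Of these 2 groups, RH MET 1, RH MET 2 and WT MET 1 belong to round 1. The 4 higher in RH MET were Ccnb1, Kif20a, Kif20b and Prc1 (11.4%, against 7.97% of all tested genes), and the 4 lower were Cdk1, Birc5, Ube2c and Knstrn (11.4% against 8.94%). Cdk1 stood at 160, 162 and 166 CPM in RH MET and at 182, 216 and 185 CPM in WT MET. Ccnb1, its partner cyclin B1, stood at 240, 226 and 208 CPM in RH MET and at 197, 126 and 197 CPM in WT MET. The kinase was thus lower and its cyclin higher in RH MET, with log2 fold changes of −0.29 ± 0.185 and 0.28 ± 0.175, neither of which passed the test (edgeR adjusted p = 0.738 for each).

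Markers of other cells moved with the same contrast. In RH MET against WT MET the 10 T and NK cell markers were all lower (median log2 fold change −1.09; summed level 46.9 to 95.6 CPM in RH MET and 88.2 to 112 CPM in WT MET). The 8 late granulocyte markers were all higher (median 1.13; 2701 to 4049 CPM in RH MET and 608 to 2715 CPM in WT MET). Of the 8 stem cell markers 7 were lower (median −0.59; 105 to 135 CPM in RH MET and 150.3 to 262 CPM in WT MET), and the 5 tested megakaryocyte markers were all lower (median −0.70; over all 6 markers, 673 to 705 CPM in RH MET and 685 to 1795 CPM in WT MET). In WT MET the lowest late granulocyte sum (608 CPM) and the highest stem cell and megakaryocyte sums (262 and 1795 CPM) were those of WT MET 2. Marker contrasts without that library are not given here. No marker of these lists was at 0 in either group, and none passed the threshold. Their part in the values of the mitosis genes was not tested.

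The response of mutant cells to metformin, RH MET against RH VEH, gave no called member either, and no gene in all was called (0%). An unadjusted p under 0.05 was reached by 1 member, which was lower, against 2.43% of all genes in either direction and 1.52% lower. That count was 8 without RH VEH 3, 3 without WT MET 2, 0 without RH MET 1, RH MET 2, RH VEH 1 or RH VEH 2, and 1 or 2 without any other library. It was 3 without the filter on low counts and 0 without the round term. The 1 member was Birc5, at 211, 195 and 193 CPM in RH MET and 303, 290 and 172 CPM in RH VEH. RH VEH 3 lay below the 3 RH MET libraries, so the groups overlapped. The log2 fold change was −0.46 ± 0.195 (edgeR unadjusted p = 0.0362, adjusted p = 0.932). For Ube2c, RH VEH stood at 307, 315 and 210 CPM and the log2 fold change was −0.38 ± 0.175 (edgeR adjusted p = 0.932). Aurka, the kinase of the spindle poles, stood at 111, 99.6 and 86.7 CPM in RH MET and 126, 120 and 97.3 CPM in RH VEH (log2 fold change −0.30 ± 0.144, edgeR adjusted p = 0.932).

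**Figure D3:**
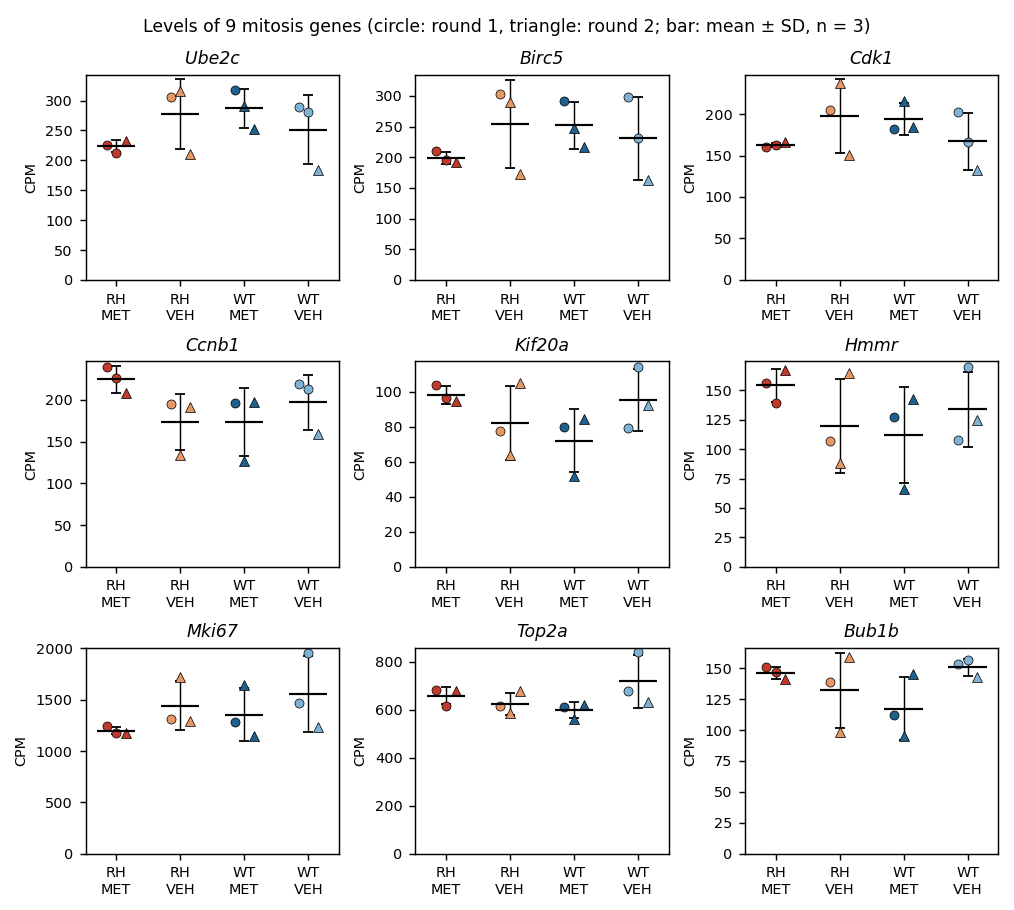
CPM of 9 mitosis genes in each library by group (circles round 1, triangles round 2; horizontal bars are means and whiskers ± SD, n = 3). The RH MET libraries of Ube2c, Birc5 and Cdk1 cluster tightly at 213 to 233, 193 to 211 and 160 to 166 CPM, while RH VEH spreads around them.

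Between RH MET and RH VEH, 4 members had groups without overlap. Ccnb1 was higher (2.86% of the members, against 4.11% of all genes), with RH VEH at 195, 134 and 192 CPM. Cdc25b, Cenpe and Mki67 were lower (8.57% against 2.81%). Cdc25b, a phosphatase that activates Cdk1, stood at 110, 103 and 111 CPM in RH MET and 145, 140 and 117 CPM in RH VEH. Cenpe, the kinetochore motor, stood at 141, 136 and 143 CPM in RH MET and 145, 151 and 155 CPM in RH VEH. Mki67 stood at 1240, 1177 and 1181 CPM in RH MET and 1311, 1719 and 1295 CPM in RH VEH. None of the 3 passed the test, with log2 fold changes of −0.34 ± 0.178, −0.12 ± 0.144 and −0.28 ± 0.201 (edgeR adjusted p = 0.932 for each).

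The marker lists differed here as well. The 10 T and NK cell markers were all lower in RH MET (median log2 fold change −1.28), with summed levels of 46.9 to 95.6 CPM in RH MET and 78.9 to 106 CPM in RH VEH. The 8 late granulocyte markers were all higher (median 1.32), at 2701 to 4049 CPM in RH MET and 585 to 2242 CPM in RH VEH. In RH VEH the lowest late granulocyte sum (585 CPM) and the lowest T and NK cell sum (78.9 CPM) were those of RH VEH 2. No marker was at 0 and none passed the threshold. The part of the markers in the values was not tested.

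In wild-type cells metformin gave no called member and none with an unadjusted p under 0.05 (WT MET against WT VEH; 0% and 4.03% of all genes), though 3 had such a p without WT MET 3 or without the filter on low counts and 1 without RH VEH 2. The lowest p belonged to Bub1b, a spindle checkpoint protein, at 112, 95 and 145 CPM in WT MET and 153, 156 and 143 CPM in WT VEH (log2 fold change −0.34 ± 0.189, edgeR adjusted p = 0.876). Top2a was the only member with groups that did not overlap, at 612, 560 and 620 CPM in WT MET and 677, 842 and 634 CPM in WT VEH. All WT MET libraries were lower (2.86% of the members, against 4.4% of all genes; none was higher, against 4.98%), and the log2 fold change was −0.25 ± 0.138 (edgeR adjusted p = 0.876). Kif20a was at 79.5, 114 and 92.1 CPM in WT VEH, for a log2 fold change of −0.38 ± 0.222 (edgeR adjusted p = 0.876). Over the 35 genes, 12 had a positive fold change and the median was −0.09, against 0.01 over all genes.

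Under vehicle, no member passed the threshold between mutant and wild-type cells (RH VEH against WT VEH), at an adjusted p or at an unadjusted one (0% and 2.03% of all genes); 2 members had an unadjusted p under 0.05 without RH VEH 3. The lowest p-values belonged to Cdk1, Aurka and Birc5, with log2 fold changes of 0.28 ± 0.187, 0.21 ± 0.145 and 0.28 ± 0.198 (edgeR adjusted p = 0.977 for each). These moved with single libraries: without WT VEH 3 they were 0.07, 0.06 and 0.10, without RH VEH 2 they were 0.11, 0.13 and 0.0997, and without WT VEH 1 they were 0.41, 0.27 and 0.43. Cdk1 stood at 205, 238 and 150 CPM in RH VEH and 202, 167 and 133 CPM in WT VEH. Aurka and Birc5 in WT VEH stood at 120, 116 and 80.9 CPM and at 297, 232 and 163 CPM. These levels overlapped between the groups. Mad2l1, the checkpoint protein that binds Cdc20, was the only member without overlap, at 136, 131 and 120 CPM in RH VEH and 119, 119 and 113 CPM in WT VEH (2.86% of the members higher, against 2.71% of all genes, and none lower, against 3.23%). Its log2 fold change was 0.16 ± 0.131. The intervals of all 35 genes stayed within 2-fold and those of 28 within 1.5-fold.

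Marker lists also moved with both contrasts against WT VEH. In WT MET against WT VEH the 8 late granulocyte markers were all lower (median log2 fold change −0.52; 608 to 2715 CPM in WT MET and 1198 to 4102 CPM in WT VEH). The 5 tested megakaryocyte markers were all higher (0.80; over all 6 markers, 685 to 1795 CPM in WT MET and 500.4 to 668 CPM in WT VEH), as were 7 of 8 stem cell markers (0.45; 150.3 to 262 CPM in WT MET and 108 to 132 CPM in WT VEH). In RH VEH against WT VEH the late granulocyte markers were again all lower (−0.70; 585 to 2242 CPM in RH VEH) and the tested megakaryocyte markers all higher (0.43; 631 to 1434 CPM in RH VEH). The lowest late granulocyte and highest megakaryocyte sums were those of WT MET 2 in WT MET (608 and 1795 CPM) and of RH VEH 2 in RH VEH (585 and 1434 CPM). The highest stem cell sum in WT MET (262 CPM) was also that of WT MET 2. Marker contrasts without these 2 libraries are not given here. No marker of these lists was at 0 and none passed the threshold. The part of the markers in the values of the mitosis genes was not tested.

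**Figure D4:**
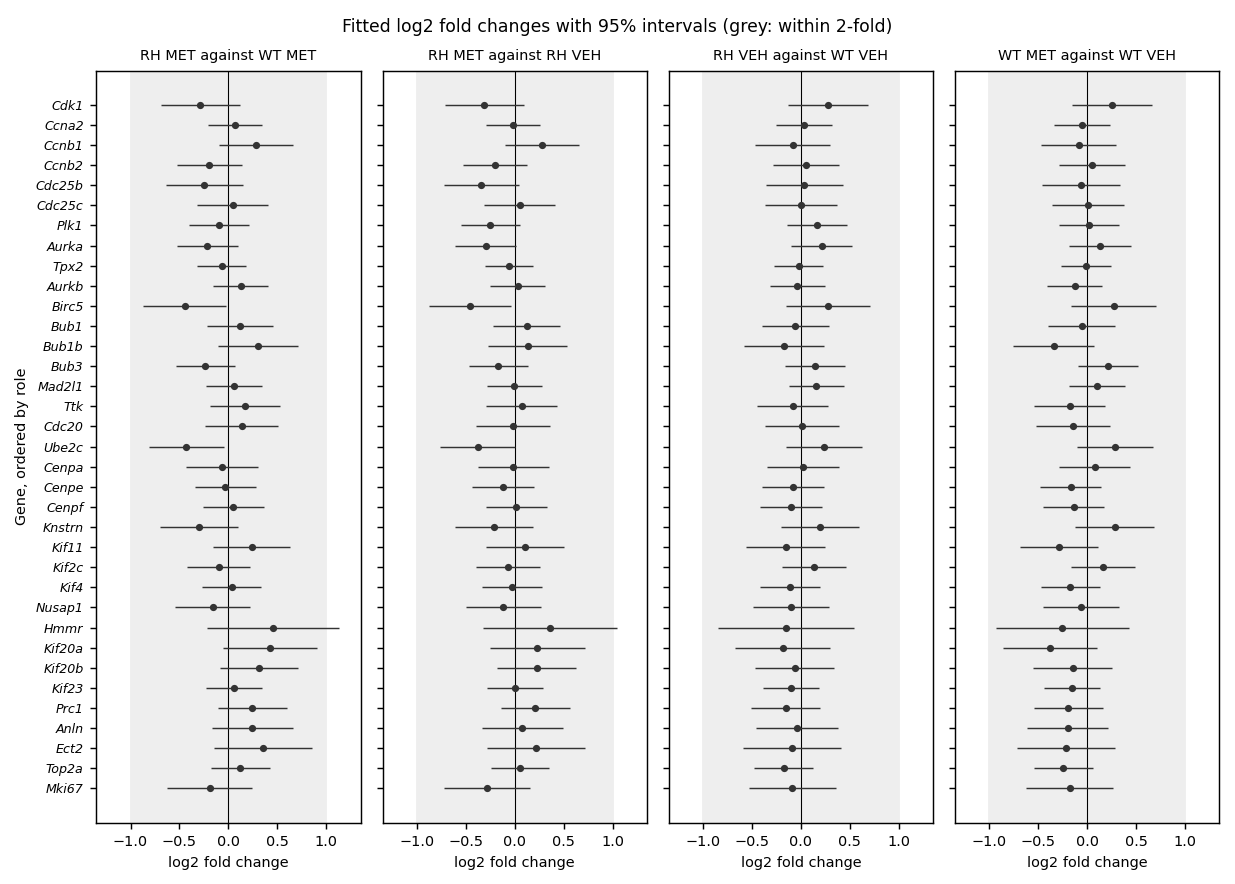
Fitted log2 fold changes (points) of the 35 mitosis genes with 95% intervals (lines) in 4 comparisons, from edgeR; the grey band is within 2-fold. Only Hmmr reaches past the band, in RH MET against WT MET and RH MET against RH VEH.

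The metformin effect in RH cells minus that in WT cells tests whether genotype alters the response. No member was called (0% of all genes), and 2 members had an unadjusted p under 0.05, both negative, against 6.21% of all genes in either direction and 3.77% negative. That count was 10 without RH VEH 3, 5 without WT MET 3, 4 without WT VEH 1, 0 without RH VEH 1, RH MET 2 or WT VEH 3, and 2 without any other library. It was 5 without the filter on low counts and 1 without the round term. They were Ube2c at −0.66 ± 0.257 and Birc5 at −0.73 ± 0.286 on the log2 scale (edgeR adjusted p = 0.648 for both). Each was lower in RH MET than in RH VEH and higher in WT MET than in WT VEH, by log2 0.29 ± 0.178 and 0.27 ± 0.198. Cdk1 followed at −0.56 ± 0.272 (edgeR adjusted p = 0.648). This difference is the least precise of the comparisons: the interval stayed within 2-fold for 27 members and within 1.5-fold for 7. The comparisons share libraries, and likeness between their fold changes is no separate evidence.

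Averaged over both treatments or both genotypes, 6 libraries stood against 6, and no member was called or had an unadjusted p under 0.05 (RH against WT 0.00667% and 2.65% of all genes, MET against VEH 0% and 1.63%). For RH against WT, the lowest p-values belonged to Mad2l1 (log2 fold change 0.11 ± 0.0902), Nusap1 (−0.13 ± 0.123), which bundles spindle microtubules, and Mki67 (−0.14 ± 0.137). Nusap1 stood at 141, 123 and 161 CPM in RH MET, 153, 130 and 170 in RH VEH, 169, 126 and 173 in WT MET and 174, 188 and 135 in WT VEH. For MET against VEH they belonged to Mki67 (−0.23 ± 0.137), Cdc25b (−0.20 ± 0.123) and Cenpe (−0.14 ± 0.0987). The edgeR adjusted p was 1 for all 6. Mki67 stood at 1280, 1642 and 1142 CPM in WT MET and 1469, 1959 and 1233 CPM in WT VEH. For no member did the 6 libraries of one side all lie beyond the 6 of the other (0.0933% of all genes for RH against WT, 0.0733% for MET against VEH). These averages had the narrowest intervals, within 1.5-fold for 34 members in the genotype mean and 35 in the metformin mean. The fit counted the 6 libraries of a side as independent, though by the labels a treatment group had 2 animals, so the intervals may be too narrow.

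DESeq2 called 0 members in all 7 comparisons, where it called 0.02% of all genes in RH VEH against WT VEH, 0.156% in RH MET against WT MET, 0.00667% in WT MET against WT VEH, 0.154% in RH against WT and 0% in the other 3. Its counts of members at an unadjusted p under 0.05 matched those of edgeR. Without the filter on low counts edgeR called 0 members in each. Of all genes it then called 0.636% in RH VEH against WT VEH, 1.31% in RH MET against WT MET, 0.832% in RH MET against RH VEH, 0.792% in WT MET against WT VEH, 1.57% in the difference of the metformin effects, 0.432% in RH against WT and 0.229% in MET against VEH. With limma voom and sample quality weights, which give each library its own weight, 2 members were called in RH MET against WT MET (Birc5 and Ube2c, 5.71%, against 5.16% of all genes) and 3 in RH MET against RH VEH (Cdc25b, Birc5 and Ube2c, 8.57% against 11.3%). In the difference of the metformin effects it called 5 (14.3% against 13%): Cdk1, Birc5 and Ube2c negative, Kif20a and Prc1 positive. The weighted log2 fold change of Ube2c in RH MET against WT MET was −0.47 ± 0.103 (limma adjusted p = 0.0228, against 0.515 to 1 under the other alternatives), and that of Birc5 was −0.47 ± 0.104 (limma adjusted p = 0.0239, against 0.515 to 1). The weights ran from 0.943 to 2.65 in RH MET, were 2.93, 0.361 and 0.339 in RH VEH, 2.92, 0.353 and 0.933 in WT MET and ran from 0.396 to 1.33 in WT VEH. RH VEH 1 and WT MET 1 therefore stood for most of their groups in that fit. WT MET 1 was also the highest WT MET library for Ube2c (318 CPM) and Birc5 (292 CPM).

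By role, fold changes shared a sign in the 6 genes of the central spindle and cytokinesis: Kif20a, Kif20b and Kif23, which are kinesins of the spindle midzone, Prc1, which cross-links its microtubules, Anln, an actin-binding scaffold, and Ect2, which activates RhoA at the cleavage furrow. All 6 had positive fold changes in RH MET against WT MET (median log2 0.28, against −0.02 for all genes) and in RH MET against RH VEH (0.21 against −0.01). All 6 had negative ones in WT MET against WT VEH (−0.20 against 0.01) and in RH VEH against WT VEH (−0.09 against 0.00). None of the 6 passed the test in any comparison, and 4 of the 6 were at their lowest in RH VEH 2 and WT MET 2. Without RH VEH 2 and WT MET 2, the count was 5 of 6 with a median of 0.19 in RH MET against WT MET, and 5 of 6 with 0.11 in RH MET against RH VEH. All 6 stayed negative in WT MET against WT VEH, with a median of −0.08, and 4 of 6 in RH VEH against WT VEH, with a median of −0.04.

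The other roles held genes of both signs in RH MET against WT MET and in RH MET against RH VEH. The 2 genes of chromosome structure, Mki67 and Top2a, both had negative fold changes in WT MET against WT VEH (median log2 −0.21). They did so too in RH VEH against WT VEH (−0.13). Of the 5 genes of spindle motors and microtubule proteins, 4 had negative ones in each of these 2 comparisons. Of the 7 genes of mitotic entry, 4 had negative fold changes in RH MET against WT MET (median log2 −0.10) and 5 in RH MET against RH VEH (−0.20). Of the 7 genes of the spindle checkpoint and APC/C activation, 5 had positive ones in RH MET against WT MET (0.12), with Ube2c and Bub3 as the exceptions. Of the 4 genes of the Aurora kinases and chromosomal passengers, Aurkb alone had a positive fold change in that comparison (0.13 ± 0.130). Of the 4 centromere and kinetochore genes Cenpf alone had one (0.05 ± 0.144).

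The 2 libraries with a high mitochondrial share, RH VEH 2 and WT MET 2, were both below all other 10 libraries in 12 of the 35 genes (34.3%, against 12.2% of all genes). These were Hmmr, Ect2, Kif20a, Ccnb1, Cdc20, Bub1b, Kif11, Aurkb, Bub1, Kif23, Prc1 and Top2a. Among lists of further mitosis genes, some lay below the 12.2% of all genes and others above it. The same share was 0% of 16 APC/C genes, 2.5% of 40 spindle, centrosome and cytokinesis genes and 15.8% of 38 kinetochore and centromere genes. It was 25% of 20 condensin, cohesin and separase genes and 26.1% of 23 transcriptional controllers. Both were above all other 10 in 3 genes, Cdk1, Knstrn and Kif2c (8.57% against 13.1%). Hmmr, which varied most, stood at 157, 139 and 167 CPM in RH MET, 107, 87.9 and 165 in RH VEH, 128, 66.0 and 143 in WT MET and 108, 169 and 125 in WT VEH. On the log2 scale RH VEH 2 differed from the mean of the other RH VEH libraries by −0.60, and WT MET 2 from that of the other WT MET libraries by −1.03. For Ccnb1 the same differences were −0.52 and −0.64, and for Cdk1 they were 0.44 and 0.24.

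**Figure D5:**
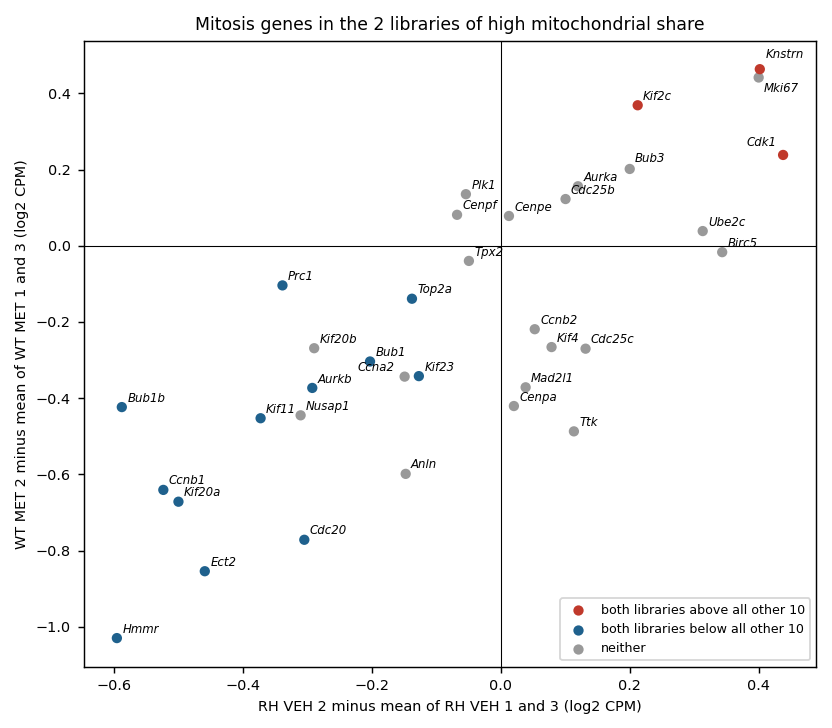
Each point is a mitosis gene; the horizontal axis gives the log2 CPM of RH VEH 2 minus the mean of RH VEH 1 and 3, the vertical axis that of WT MET 2 minus the mean of WT MET 1 and 3. Blue genes were below all other 10 libraries in both, red genes above; Hmmr lies at the lower left (−0.60, −1.03).

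In these 2 libraries the promyelocyte markers were lower as well, 5 of 5 below all other 10 libraries (summed level 1037 CPM in RH VEH 2 and 920 CPM in WT MET 2). So were 7 of 8 late granulocyte markers (585 and 608 CPM) and 4 of 6 monocyte markers (84.5 and 104 CPM), while 4 of 5 tested megakaryocyte markers were above (summed over all 6 markers, 1434 and 1795 CPM). No marker was at 0; their part in the values of the mitosis genes was not tested. Without these libraries no member was called in any of the 7 comparisons (0% to 0.0196% of all genes). Ube2c at −0.38 ± 0.157 and Birc5 at −0.39 ± 0.167 in RH MET against WT MET (edgeR adjusted p = 0.774 for both) were then the only members with an unadjusted p under 0.05.

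Round 2 libraries had lower fitted levels than round 1 libraries for 30 of the 35 genes (85.7%, against 48.9% of all genes; median log2 difference −0.08, against 0.01 for all genes). None of the 35 was called, where 7 genes in all were (0.0467%), and 7 of the 35 had an unadjusted p under 0.05 (20%, against 14.4% of all genes). Plk1, the kinase that drives centrosome maturation, differed most, at −0.40 ± 0.103 (edgeR adjusted p = 0.152). The libraries of high mitochondrial share, RH VEH 2 and WT MET 2, are both of round 2. Their part in the round difference was not tested. Within rounds, Ube2c in RH MET against WT MET had a log2 fold change of −0.54 in round 1 and −0.20 in round 2, and Birc5 of −0.52 and −0.25. In RH MET against RH VEH the values were −0.49 and −0.14 for Ube2c and −0.58 and −0.23 for Birc5. The sign was the same in both rounds. Each round has a single library in one arm of these comparisons, so these are values without a usable test.

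The wider machinery of mitosis was described by 137 further genes in 5 lists, all of which were tested. None was called in any comparison. At an unadjusted p under 0.05 there were 7 in RH MET against WT MET (5.11%, against 5.78% of all genes), 6 in RH MET against RH VEH (4.38% against 2.43%), 3 in WT MET against WT VEH (2.19% against 4.03%), 1 in RH VEH against WT VEH (0.73% against 2.03%) and 9 in the difference of the metformin effects (6.57% against 6.21%). In the difference of the metformin effects all 9 were negative, where 3.77% of all genes were so. Of the 7 in RH MET against WT MET, 6 were lower, where 3.59% of all genes were so. All 6 in RH MET against RH VEH were lower (4.38%, against 1.52% of all genes lower). They include Cenpm, a centromere protein (log2 fold change −0.63 ± 0.193), Lin52, a subunit of the DREAM complex that binds CHR elements (−0.63 ± 0.200), Stmn1, a microtubule destabiliser (−0.44 ± 0.178), and E2f1, an activator of cell cycle genes (−0.44 ± 0.170), each at an edgeR adjusted p of 0.932. Cks2, a Cdk1-binding subunit, stood at −0.27 ± 0.121.

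Set beside them, the 40 genes of S phase and replication had negative fold changes in 37 of 40 cases in RH MET against RH VEH (median log2 −0.16, against −0.01 for all genes and for the 35 mitosis genes). In RH MET against WT MET the count was 32 of 40 (median −0.08), where the 35 mitosis genes had 15 negative (median 0.05). None of the 40 was called. As a mean level, the S phase genes stood at 7.44 ± 0.0688 log2 CPM in RH MET, 7.51 ± 0.147 in RH VEH, 7.43 ± 0.0514 in WT MET and 7.51 ± 0.238 in WT VEH. The mitosis genes stood at 7.16 ± 0.0416, 7.15 ± 0.0461, 7.09 ± 0.124 and 7.19 ± 0.177 in the same groups (SD, n = 3 each), all within the spread.

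Some levels may hold reads of other genes. Of the 35 genes, 19 overlap another annotated gene, and for 6 the partner's median count was over 5% of the member's: Kif20a with Cdc23 (88%), Cdc20 with Elovl1 (43.2%), Kif4 with Pdzd11 (31.6%), Nusap1 with Oip5 (22.2%), Prc1 with Rccd1 (13.5%) and Ccna2 with Exosc9 (12.3%). All 6 partners lie on the opposite strand, and no source used here gives the strand setting of the counting, so these 6 levels are uncertain. Of 3 pseudogenes, Ccnb1-ps and Ccnb2-ps had median counts of 33 and 24 and Kif4-ps had 0.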

How the data were processed

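Counts per gene were used as the authors deposited them: whole-number read counts of 12 libraries, with no normalization. Per the submitters' processing notes, the tools were STAR 2.5 and HTSeq 0.6.1 with build mm10; no settings are given. The deposited table also gave each gene's length, used for levels per kilobase. A smaller deposited table was used only to assign rounds by its 6 shared columns; its 2 remaining columns were not used. Libraries belong to 4 groups of 3. By their own names, 7 columns could be tied to a group but to no single sample. Of these, RH VEH 1 holds the counts of a column that the smaller table numbers 2, a number the labels of its group include.

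All 15003 genes that passed filterByExpr were fitted with edgeR 4.0.16 (R 4.3.3; TMM, robust quasi-likelihood, 4 group means plus a round term), and p-values were adjusted by Benjamini-Hochberg over all of them in each of 7 comparisons, with a threshold of 0.05. Levels are TMM-normalised CPM, and log2 CPM used a prior count of 2. Levels, group means and the overlap of groups were not adjusted for round. The fit was checked on simulated counts. Alternatives were RLE size factors, DESeq2 1.42.0, limma 3.58.1 voom with quality weights, no filter, no round term, mitochondrial genes removed, single rounds and libraries left out. No 2 libraries of a group agreed within sampling noise (median chi-square per gene 1.87 to 41.6). Values by library are given for the 3 members of lowest p in each comparison, Mki67 and Cdk1; Ccnb1, Hmmr and Kif2c were added after their values were seen. The members and lists were chosen with earlier results of these data known. Overlaps use the gene coordinates of the deposited table, promoters those of RefSeq. Total counts per library were 13359583 to 21938003.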

Additional observations from a re-analysis of the deposited data

How the results depend on the processing

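Under the alternatives, 431 values of named genes kept their direction and their side of the threshold, 7 crossed it under voom with quality weights (log2 fold changes of −0.47 for Birc5 and −0.47 for Ube2c in RH MET against WT MET, −0.51 and −0.42 in RH MET against RH VEH, and −0.84, −0.73 and −0.55 for Birc5, Ube2c and Cdk1 in the difference of the metformin effects) and 3 reversed in round 2 alone: Nusap1 at 0.13 and Mki67 at 0.018 in RH against WT and Cdc25b at 0.092 in MET against VEH. The cause was not tested. No alternative except voom called a member; voom called 2 in RH MET against WT MET, 3 in RH MET against RH VEH and 5 in the difference of the metformin effects. The count of genes called over all 15003, 1 in RH MET against WT MET and in RH against WT and 0 elsewhere, moved more. In the order RH VEH against WT VEH, RH MET against WT MET, RH MET against RH VEH, WT MET against WT VEH, difference of the metformin effects, RH against WT and MET against VEH, it was 175, 362, 229, 218, 431, 119 and 63 without the filter, where more genes of low counts were tested. DESeq2 called 3 and 22 in the first and second, 1 in WT MET against WT VEH and 20 in RH against WT. Voom called 774, 1700, 1, 1946, 57 and 3 in the second to the seventh. Without RH VEH 2 and WT MET 2 it was 3 in RH VEH against WT VEH, 1 in RH MET against RH VEH, 1 in the difference and 3 in RH against WT. In round 1 alone it was 2 in RH VEH against WT VEH, 0 in RH MET against WT MET, 3 in RH MET against RH VEH, 3 in the difference, 2 in RH against WT and 2 in MET against VEH; in round 2 alone it was 0 in RH MET against WT MET and 0 in RH against WT, as it was 0 in RH MET against WT MET without the round term. Leaving out each library in turn gave 0 to 2 called genes in RH VEH against WT VEH and in RH MET against WT MET, 0 to 1 in RH MET against RH VEH and in the difference, and 1 to 2 in RH against WT; of the members 0 were called in all 12 fits. The median log2 fold change of the members in the difference was 0.05, and 0.016 to 0.19 with a library left out (0.19 without WT VEH 3), 0.19 without the round term and 0.17 in round 1 alone; in RH VEH against WT VEH it was −0.15 in round 1 alone, against −0.04. With a library left out, that median ran from −0.13 to 0.01 in RH VEH against WT VEH (above 0 without WT VEH 2) and from −0.06 to 0.04 in RH MET against RH VEH. No paired analysis was possible because only 5 columns of the 12 could be tied to the replicate numbers of the labels, and no groups compared share 2 such numbers. With 3 libraries a group, the intervals of many members reached past 1.5-fold. They stayed within 1.5-fold for 20 of the 35 in RH MET against WT MET and for 7 in the difference of the metformin effects. In that difference they stayed within 2-fold for 27. Every member had at least 243 counts in every library, and the part of depth in the width of the intervals was not tested.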
